A study of Mus musculus with 12 samples.

Results

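Short-range contacts were followed along the Shh locus of the mouse, on chromosome 5 from 28317087 to 30005000 (mm9). A short-range contact was taken as a pair of HindIII fragments whose midpoints lay 50 kb or less apart and whose signal was above 0 in at least 1 library. Of 28980 fragment pairs above 0 at any distance, 1772 (6.11%) met this limit, and they are described here by their position. The limit used distance alone, not the level of the signal or its change. The pairs above 0 joined a class of 176 fragments with a class of 165. Among the 3405 pairs of the 341 shared fragments within the limit, 1630 lay inside a class and were at 0 in every library. Of the 1775 between the classes, 3 were at 0 throughout.

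Contacts were measured by 5C in 5 groups of cells. In 5C (chromosome conformation capture carbon copy), crosslinked chromatin is cut, here with HindIII, and religated, and oligonucleotides annealed to the ligated ends are joined, amplified and sequenced. The groups were 46c mouse embryonic stem cells (ESC, 2 biological replicates), neural progenitor cells made from 46c cells by 7 days in N2B27 medium (NPC, 2), and 3 groups of transfected 46c cells, labelled tSBE6-Vp64 (1 replicate), tSBE2-Vp64 (1 replicate) and, with 2 replicates, tSBE(6+2-Vp64). The name is read here as a designed DNA-binding protein that carries the activator Vp64 to SBE6, to SBE2 or to both of these enhancers. All 5 groups thus came from the same cell line, and ESC without transfection served as the comparator. The labels do not state the share of cells transfected, any selection, or the promoter driving the protein, and cells transfected without an activator were not analysed here.

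The locus runs from the gene-containing left flank (Insig1, En2, Cnpy1, Rbm33) through Shh, the gene of a secreted morphogen, into a long gene-poor stretch that holds the neural enhancers SBE6, SBE4 and SBE2. Beyond it lie Rnf32 and Lmbr1, whose intron carries the limb enhancer ZRS, and then the right flank with Nom1, Mnx1 and Ube3c. In any chromatin fibre, fragments near each other along the DNA meet most often, so signal falls steeply with distance, and the steepness is commonly read as a sign of how a fibre is folded or packed. Fragments that adjoin in the genome are a special case. A junction that HindIII never cut has the same sequence order as one cut and religated in its original orientation.

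The 12 deposited matrices held 11 distinct libraries, because the NPC library of replicate 1, technical replicate 1 had the same values as replicate 2, technical replicate 2 (largest difference 4.02e-08). It was counted once, in replicate 1. Signal is in reads per 1000 of a library, scaled to the same total over the shared fragments. The lowest values of each library were whole multiples of a smallest step. If that step is 1 read, the libraries held from 0.978 M to 48.2 M reads. By this count the ESC libraries held 22.0 M and 20.7 M, and the NPC libraries 43.2 M, 0.978 M and 1.87 M. The last of these is all of NPC replicate 2. In tSBE(6+2-Vp64) the library of replicate 1, technical replicate 1 stood apart from the other 10. It held 17.1% of its signal in short-range pairs, and its mean signal was no higher from 0 to 5 kb (0.128) than from 5 to 10 kb (0.135). In every other library the first class exceeded the second by at least 2.09-fold. Its effect on the tSBE(6+2-Vp64) values is given beside them.

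Short-range pairs took a smaller part of the signal in NPC than in ESC. Their share of all signal was 62.7% and 59.4% in the ESC replicates and 25.7% and 31.0% in the NPC replicates, so that the groups did not overlap (means 61.0% ± 2.37 and 28.4% ± 3.72, SD, n = 2 each). In tSBE6-Vp64 the share was 56.8%, below both ESC replicates by less than the distance between ESC and NPC. In tSBE2-Vp64 it was 36.6%, between NPC and ESC. The tSBE(6+2-Vp64) replicates held 34.2% and 55.0%, and replicate 1 rose to 51.3% without the library that stood apart. No test was made of these shares, because with 2 replicates on each side the smallest two-sided p of an exact permutation test is 0.333.

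A share of a fixed total moves with the rest of that total. A set of 21 pairs more than 50 kb apart each held over 0.5% of some library, and without them short-range pairs held 65.5% ± 3.72 of the ESC signal and 49.6% ± 3.43 of the NPC signal (SD, n = 2 each). The difference between the group means thus went from 32.7 to 15.9 percentage points, and the groups still did not overlap. It was 12.5 points for tSBE2-Vp64, against 24.5 with those pairs.

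**Figure D1:**
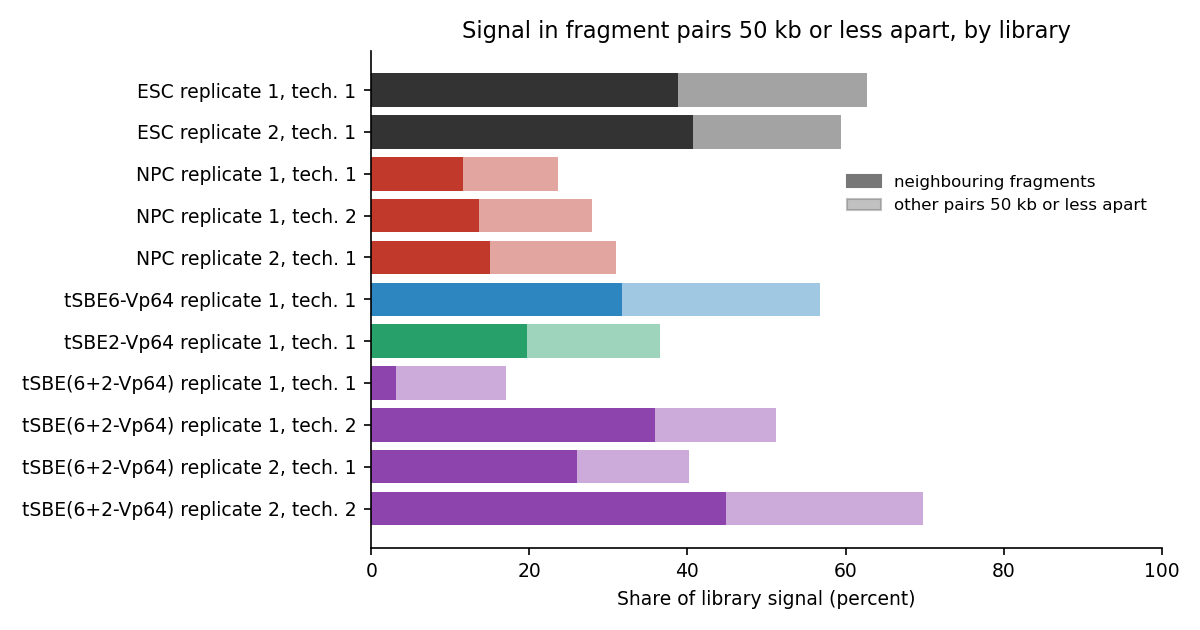
Share of each library's signal (percent, horizontal axis) in fragment pairs 50 kb or less apart, for the 11 libraries; the dark part of a bar is neighbouring fragments and the pale part all other short-range pairs. The bars of the 3 NPC libraries end between 23.6% and 31.0% and those of the 2 ESC libraries at 62.7% and 59.4%; the library of tSBE(6+2-Vp64) replicate 1, technical replicate 1 has the shortest dark part (3.11%).

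Within the first 50 kb, the fall of signal with distance was shallower in NPC. In ESC the mean signal per pair was 1.63 ± 0.0462 from 0 to 5 kb (247 pairs), 0.524 ± 0.0390 from 5 to 10 kb and 0.166 ± 0.0359 from 10 to 15 kb (SD, n = 2). In NPC the same classes had 0.574 ± 0.0708, 0.263 ± 0.0317 and 0.100 ± 0.0177. NPC was therefore 2.83-fold lower in the first class, 1.99-fold lower in the second and 1.66-fold lower in the third. From 20 to 25 kb the NPC mean was 1.36-fold lower, less than the spread between the ESC replicates (0.0779 ± 0.0266 in ESC, 0.0572 ± 0.00984 in NPC).

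The slope of log10 signal on log10 distance was -1.24 and -1.38 in the ESC replicates and -0.887 and -0.881 in the NPC replicates. A single pair had a large part in this. Shh_379 with Shh_403 lies 45.2 kb apart near Rnf32, in the last distance class, and without it the NPC slopes were -1.14 and -1.13 and the ESC slopes -1.24 and -1.44. The difference between the means shrank from 0.43 to 0.21 and kept its sign. The NPC slopes were then closer to ESC replicate 1 than the ESC replicates were to each other. tSBE6-Vp64 had a slope of -1.13 and tSBE2-Vp64 of -0.982, or -1.15 and -1.17 without that pair, close to NPC. The tSBE(6+2-Vp64) replicates had -0.917 and -1.40, or -0.977 and -1.46 without that pair. With the pair kept and the library that stood apart left out, the group mean went from -1.16 to -1.34, past the ESC mean of -1.31.

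**Figure D2:**
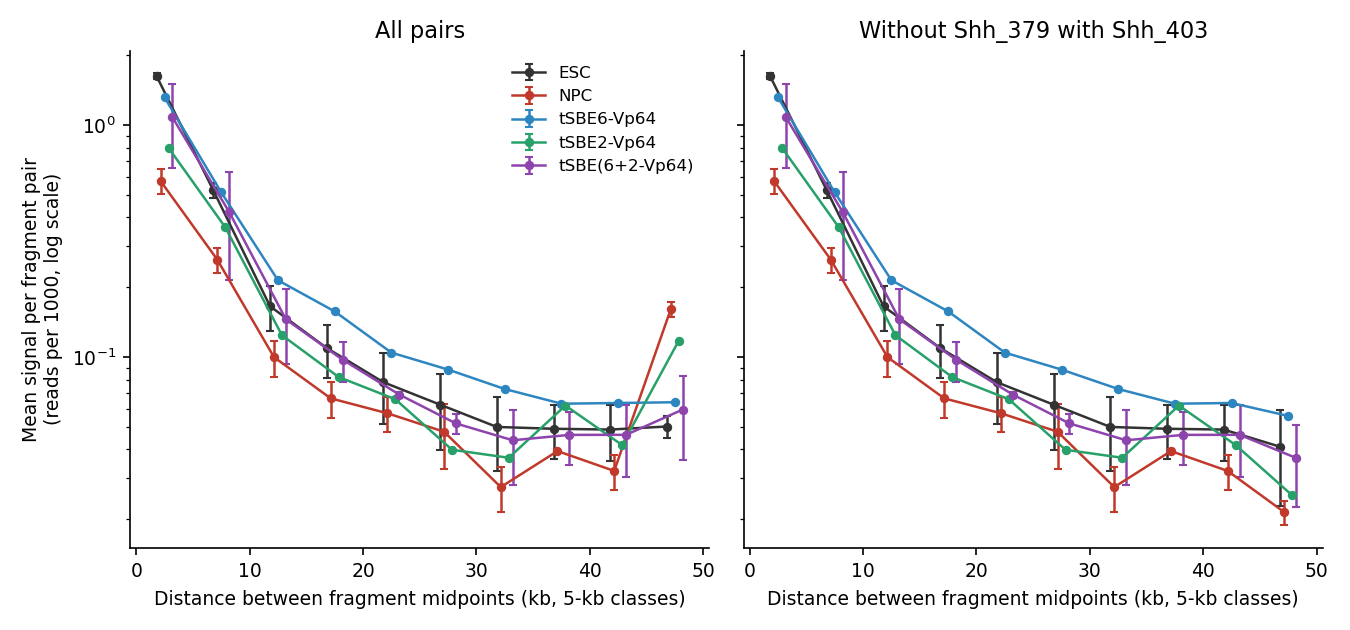
Mean signal per fragment pair (reads per 1000, log scale) against distance in 5-kb classes, for all short-range pairs (left) and without the pair Shh_379 with Shh_403 (right); points are group means, bars the SD of 2 replicates, and tSBE6-Vp64 and tSBE2-Vp64 have 1 replicate and no bar. ESC is 2.83-fold above NPC in the first class, and the NPC point of the last class drops from 0.161 to 0.0214 when the single pair is left out.

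Fragments that adjoin in the genome held much of this signal. The 227 neighbouring pairs, with consecutive numbers and a median distance of 2.67 kb, made up 61.9% and 68.5% of short-range signal in ESC and 48.4% to 49.2% in the NPC libraries. They made up 55.9% in tSBE6-Vp64, 53.8% in tSBE2-Vp64 and 64.3% to 70.0% in 3 tSBE(6+2-Vp64) libraries, against 18.2% in the one that stood apart. The mean of a neighbouring pair was 1.71 and 1.79 in the ESC replicates and 0.555 and 0.660 in the NPC replicates, a log2 ratio of means of -1.53. For the 1545 other pairs the log2 ratio was -0.55, from an ESC mean of 0.138 to an NPC mean of 0.0943.

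Pair by pair, 206 of the 227 neighbouring pairs (90.7%) and 682 of the other 1545 (44.1%) were lower in both NPC replicates than in both ESC replicates. Over pairs at any distance this was so for 19.4%. None of the neighbouring pairs, and 68 of the others, lay above both ESC replicates in both NPC replicates, against 10.7% of pairs at any distance. In tSBE6-Vp64 the 2 kinds of pair differed in sign: the log2 ratio to ESC was -0.32 for neighbours and 0.24 for the others. Of the others, 812 (52.6%) lay above both ESC replicates in the single tSBE6-Vp64 library, against 43.8% of pairs at any distance.

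Along the locus, the 1772 pairs were grouped by their centre into 85 windows of 20 kb (1 to 66 pairs each, median 19). The mean signal per pair, averaged over the 5 groups, ran from 0.0195 to 1.09, a 56.0-fold range. This profile was shared by all groups: across the 85 windows, which are not independent samples and share their fragments, log2 signal of any 2 replicates correlated at r from 0.742 to 0.968 (median 0.918, 28 comparisons). Part of the profile is distance: window means were lower where a window's pairs lay farther apart (Spearman's rho -0.73 with the mean distance). After each pair was divided by the mean of its 5-kb distance class in the same replicate, the correlations ran from 0.362 to 0.886.

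The 5 highest windows were chr5:30000001-30020000 at the right end (a single pair, Shh_554 with Shh_555), chr5:28940001-28960000 and chr5:28860001-28880000 on either side of SBE6, chr5:28420001-28440000 beside Insig1, and chr5:29980001-30000000. The 5 lowest were chr5:28900001-28920000 and chr5:28920001-28940000 just past SBE6, chr5:29440001-29460000, chr5:28320001-28340000 and chr5:29380001-29400000. SBE6 was thus close to both extremes: the window with mean 0.813 over the groups (28860001) and the one with 0.0195 (28900001) begin 40 kb apart. The 2 low windows past SBE6 held 10 and 7 pairs, none of them neighbours, and were also low for their distance, at 0.343 and 0.323 of expectation. Near Insig1, by contrast, signal was high for its distance, at 3.89 times expectation in the Insig1 window, of only 3 pairs, and 3.46 times in the next one.

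**Figure D3:**
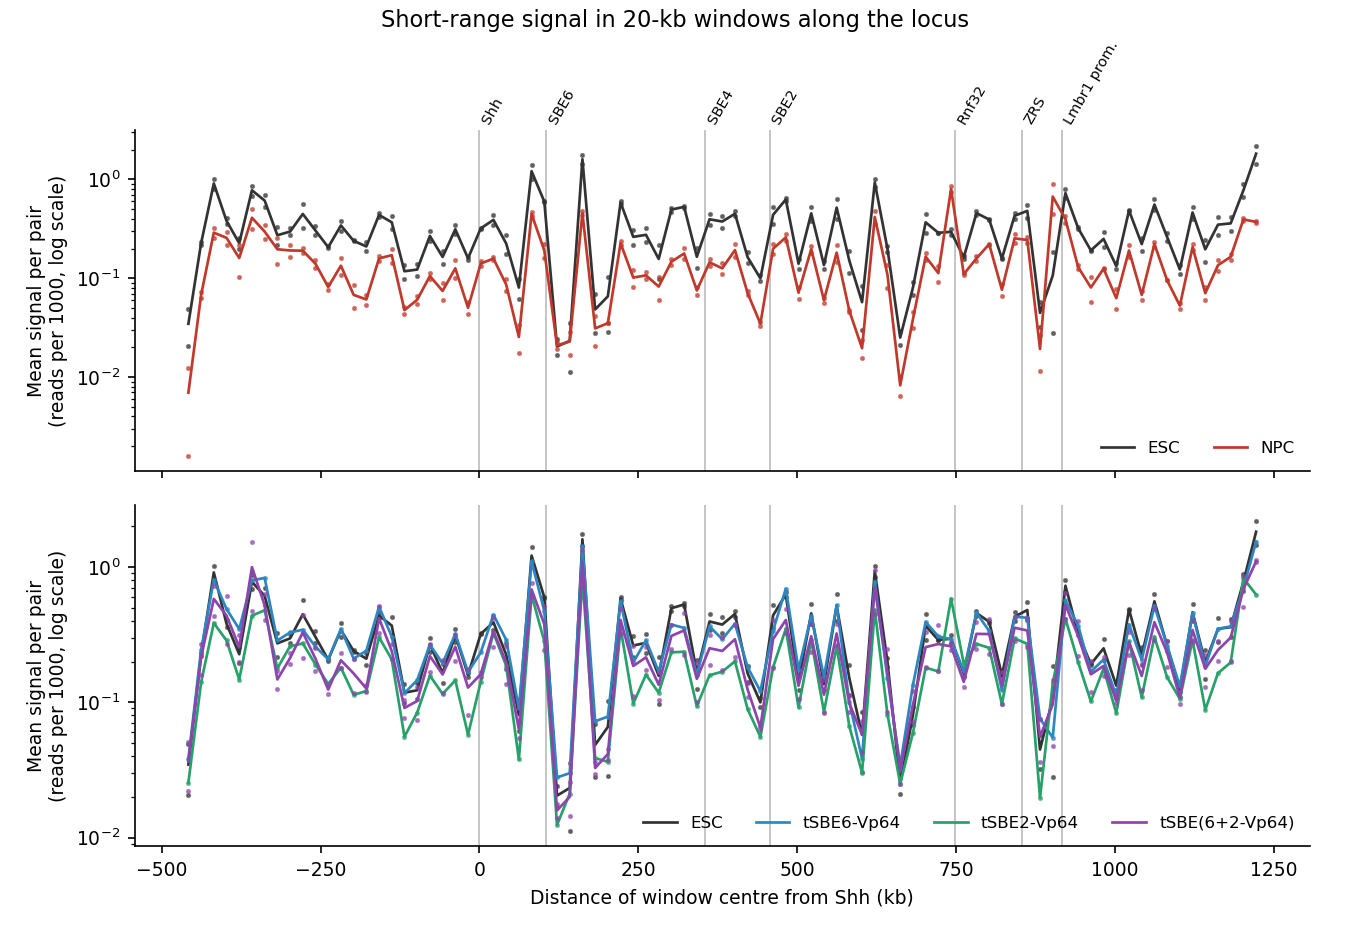
Mean short-range signal per pair (reads per 1000, log scale) in 85 windows of 20 kb against distance from Shh (kb), with ESC and NPC above and ESC with the transfected groups below; lines are group means and dots replicates, and grey lines mark approximate element positions. NPC runs below ESC over most of the locus, crosses it in the windows at Rnf32 and before the Lmbr1 promoter, and meets it in the 2 low windows past SBE6.

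In NPC, short-range signal was lower than in ESC over nearly the whole locus. In 76 of the 85 windows both NPC replicates lay below both ESC replicates, against 52.4% of all 431 cells of window and distance class. On the scale of the whole library, the median log2 difference was -1.17, or 2.25-fold lower, against -0.28 for cells over 50 kb. Without the high long-range pairs that were left out of the shares above, the median was -0.52, with 74 of the 85 windows below 0. The size of the drop thus depended on those pairs. With them kept, the median was alike in the 3 stretches of the locus: -1.20 in the left flank (23 windows), -1.15 from Shh to the Lmbr1 promoter (47) and -1.27 in the right flank (15). By limma with Benjamini-Hochberg adjustment over the 431 cells, 28 of the 85 short-range windows fell and 2 rose, and 66 (77.6%) had an unadjusted p under 0.05, against 24.4% of all cells. Among all 431 cells, 7.19% fell and 3.94% rose. The falling windows had log2 differences from -2.24 to -1.16. Without the high long-range pairs, 4 short-range windows passed, 2 higher and 2 lower.

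The number of windows called moved widely when single replicates were left out. Leaving out ESC replicate 1 gave 2 and ESC replicate 2 gave 11, while leaving out NPC replicate 1 gave 3 and NPC replicate 2 gave 2. It was 56 without tSBE(6+2-Vp64) replicate 1, 57 without its replicate 2, and 61 without only the library that stood apart. The median log2 difference without that library was -1.17, as with it. With each library scaled to its short-range total instead, which removes the overall drop, the median was -0.14 and 4 windows passed, 2 higher and 2 lower (4.87% and 0.464% of all cells), and all 4 were among the 30.

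The 5 windows that fell most in NPC lay at both ends, in the left flank, past SBE6 and before SBE4. At the right end, chr5:30000001-30020000 had 2.20 and 1.45 in ESC and 0.361 and 0.383 in NPC, a log2 difference of -2.24 ± 0.35 (SE, limma adjusted p = 1.58e-08). The window chr5:28940001-28960000, past SBE6, had 1.44 and 1.77 in ESC and 0.478 and 0.435 in NPC (log2 -1.79 ± 0.35, adjusted p = 1.37e-05). The groups were far apart in both windows, and these are the 2 that also fell on the scale of the short-range total, by -1.14 ± 0.14 and -0.69 ± 0.14. Their leading pairs were Shh_554 with Shh_555 (chr5:29996460-30001398 and chr5:30001399-30005000), alone in its window, and Shh_198 with Shh_199 (chr5:28945937-28949569 and chr5:28949570-28950647), with 49.1% of its window in ESC. Both are neighbouring pairs. In the limma fit of single pairs neither passed in NPC, with an adjusted p of 0.227 for the first and 0.108 for the second. The window fit took its spread from the trend over all 431 cells, which gave it far more degrees of freedom than the pair fit. The second window did not pass without NPC replicate 2.

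The other 3 of these windows passed on the scale of the whole library and not on that of the short-range total. In chr5:28580001-28600000, of the left flank, ESC had 0.236 and 0.243 and NPC 0.0503 and 0.0856 (log2 -1.78 ± 0.51, adjusted p = 0.0106). In chr5:28320001-28340000, at the left end, ESC had 0.0488 and 0.0205 and NPC 0.0123 and 0.00156, from 2 pairs with low signal. In chr5:29080001-29100000, between SBE6 and SBE4, ESC had 0.518 and 0.474 and NPC 0.138 and 0.156 (log2 -1.72 ± 0.45, adjusted p = 0.00413). No NPC value reached the ESC values in any of the 3. Without neighbouring pairs the last window had a log2 difference of -0.12, so its drop lay in its 4 neighbouring pairs. None of the 3 passed when ESC replicate 1, NPC replicate 1 or NPC replicate 2 was left out, nor did the first with ESC replicate 2 left out.

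At Shh itself (chr5:28780001-28800000), the mean short-range signal was 0.317 and 0.322 in ESC and 0.133 and 0.149 in NPC. The NPC values were clearly separate from ESC, but the log2 difference of -1.15 ± 0.49 missed the threshold (adjusted p = 0.104). The neighbouring pair Shh_151 with Shh_152 (chr5:28798546-28799298 and chr5:28799299-28801546) held 71.4% of this window in ESC and 57.0% in NPC. Divided by the distance expectation, the NPC difference was 0.74, the opposite sign. The window had 0.234 in tSBE6-Vp64, 0.142 in tSBE2-Vp64, and 0.154 and 0.169 in tSBE(6+2-Vp64), all below the ESC replicates with none past the threshold. Without the library that stood apart, replicate 1 of the last group had 0.249.

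The SBE6 window (chr5:28880001-28900000) fell in NPC. It had 0.593 and 0.601 in ESC and 0.160 and 0.222 in NPC, with a log2 difference of -1.63 ± 0.44 (adjusted p = 0.00438). The ESC replicates agreed closely and the NPC replicates lay well below. On the scale of the short-range total the difference was -0.54 ± 0.24 (adjusted p = 0.28). The window passed in 14 of 23 other settings at this window size, and not without ESC replicate 1, NPC replicate 1 or NPC replicate 2. In tSBE6-Vp64, whose activator is aimed at this enhancer, the value was 0.473 (log2 -0.33 ± 0.53, adjusted p = 1.00), and it was 0.282 in tSBE2-Vp64 and 0.242 and 0.513 in tSBE(6+2-Vp64), or 0.389 and 0.513 without the library that stood apart.

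At SBE4 (chr5:29140001-29160000) the values were 0.448 and 0.343 in ESC and 0.133 and 0.157 in NPC, and the window fell (log2 -1.41 ± 0.47, adjusted p = 0.0297). It passed in 12 of 23 other settings, in none of the 4 that left out an ESC or NPC replicate. SBE2 (chr5:29240001-29260000) had 0.354 and 0.523 in ESC and 0.175 and 0.223 in NPC. This difference of -1.10 ± 0.46 missed the threshold (adjusted p = 0.0976), although the NPC replicates lay below both ESC replicates. In tSBE2-Vp64, whose activator is aimed at SBE2, the window had 0.181 (log2 -1.22 ± 0.56, adjusted p = 0.643).

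At ZRS and the Lmbr1 promoter the NPC values were below ESC and the differences did not pass. The ZRS window (chr5:29640001-29660000) had 0.555 and 0.407 in ESC and 0.227 and 0.261 in NPC (log2 -0.95 ± 0.44, adjusted p = 0.147). The window of the Lmbr1 promoter (chr5:29700001-29720000) had 0.798 and 0.655 in ESC and 0.362 and 0.429 in NPC (log2 -0.87 ± 0.40, adjusted p = 0.147). Both differences were above 0 on the scale of the short-range total, at 0.14 ± 0.24 and 0.23 ± 0.19. With the median over pairs in place of the mean, the Lmbr1 promoter had -1.90 (adjusted p = 0.142). Among the windows of the 8 other genes, that of Mnx1, a motor neuron homeobox gene, fell (log2 -1.33 ± 0.45, adjusted p = 0.0313) and that of Rnf32 rose. The remaining 6 ran from -1.31 at Ube3c to -0.56 at Insig1 and did not pass. On the scale of the short-range total the Mnx1 difference was -0.24 ± 0.26 and did not pass (limma adjusted p = 0.905).

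Against this general drop, 2 windows rose in NPC, and in each a single distant pair carried the rise. The Rnf32 window (chr5:29520001-29540000) had 0.276 and 0.314 in ESC and 0.750 and 0.850 in NPC (log2 1.42 ± 0.42, adjusted p = 0.0153). Of its 35 pairs, Shh_379 with Shh_403 held 82.5% of the NPC signal. Without the highest pair of each window the log2 difference at Rnf32 was -0.83, in the range of the other windows.

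The other rising window, chr5:29680001-29700000, lies just before that of the Lmbr1 promoter and held 4 pairs. Its values were 0.0278 and 0.185 in ESC and 0.446 and 0.896 in NPC (log2 3.00 ± 0.51, adjusted p = 3.22e-07). The pair Shh_453 with Shh_461 (chr5:29677935-29691941 and chr5:29709706-29713030), 26.4 kb apart, held 98.0% of its NPC signal. Without the highest pair the difference was -0.65. This window passed in 20 of 23 other settings and the Rnf32 window in 15. Neither passed without ESC replicate 1, and the Rnf32 window was also lost when either NPC replicate was left out.

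The 2 low windows past SBE6 were the remaining ones with a difference above 0 in NPC. In chr5:28900001-28920000 the values were 0.0241 and 0.0167 in ESC and 0.0191 and 0.0228 in NPC (log2 0.04 ± 0.51). In chr5:28920001-28940000 they were 0.0353 and 0.0112 in ESC and 0.0169 and 0.0289 in NPC (log2 0.09 ± 0.52). The groups overlapped in both, and the 95% intervals of the differences ran from -0.96 to 1.04 and from -0.93 to 1.11.

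**Figure D4:**
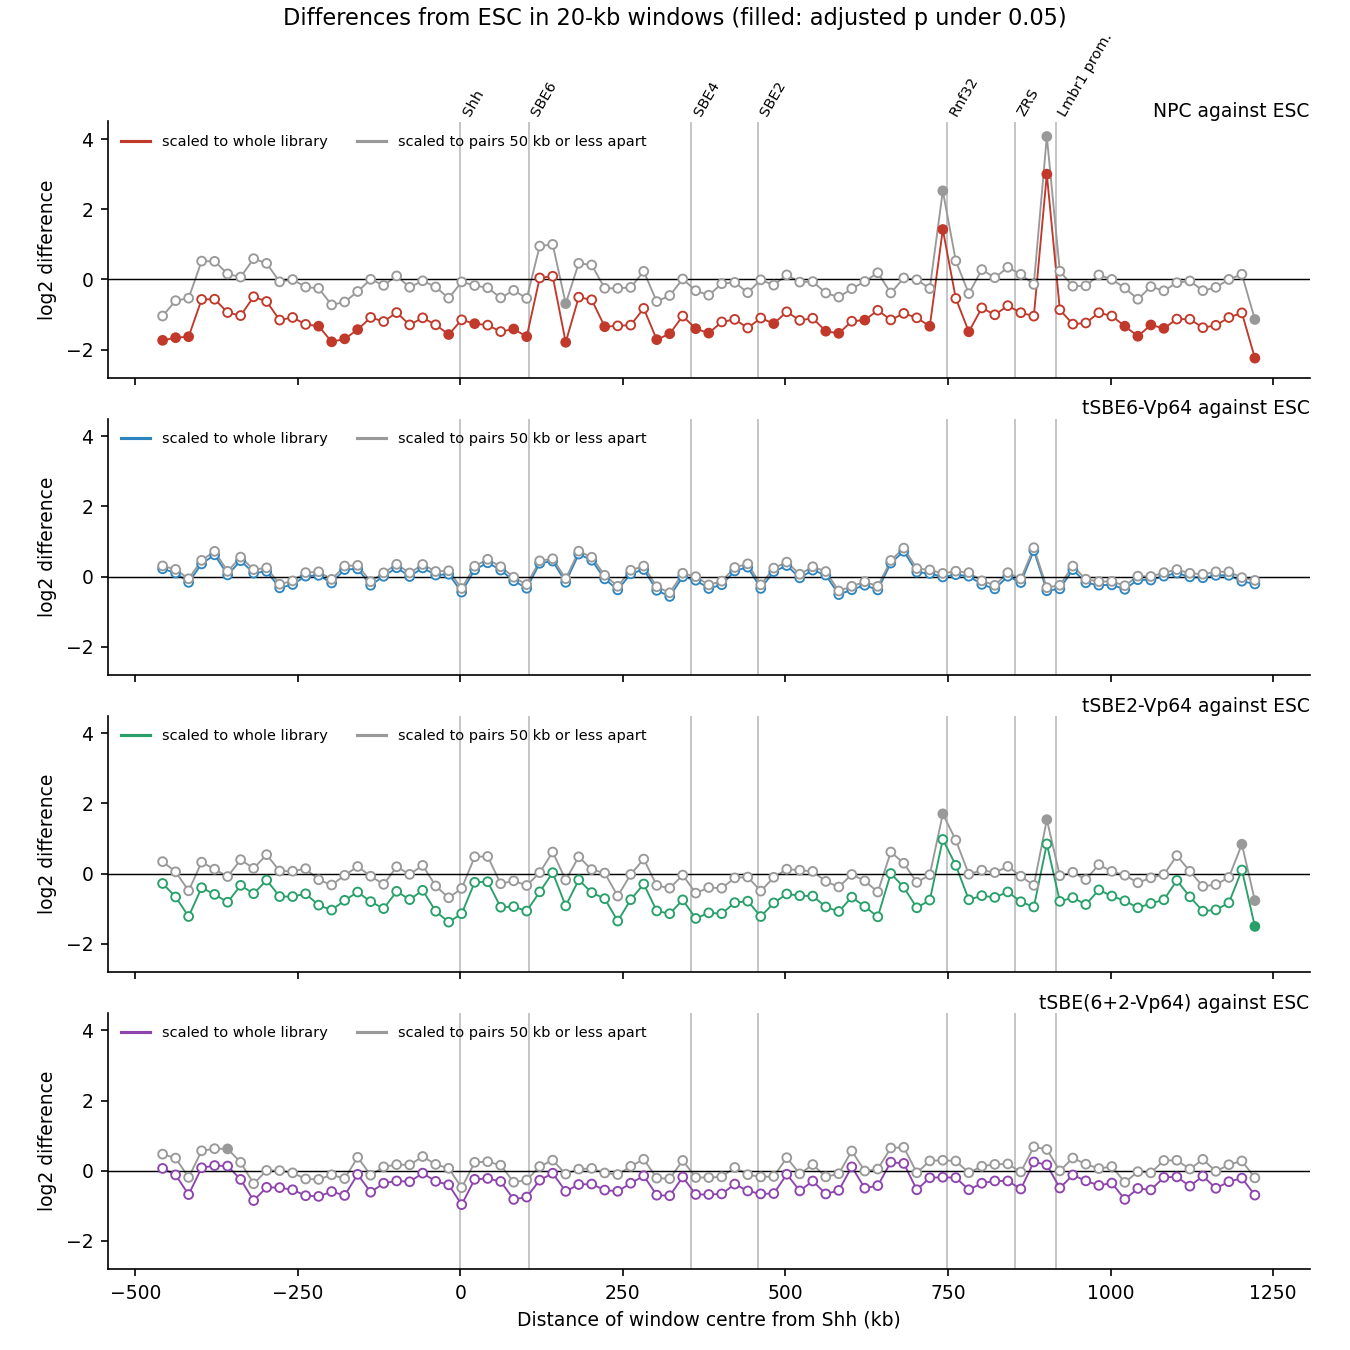
Log2 difference from ESC (vertical axis) in 85 windows of 20 kb against distance from Shh (kb), 1 panel for each group; coloured points are scaled to the whole library, grey points to pairs 50 kb or less apart, and filled points passed at an adjusted p of 0.05. In NPC the coloured profile lies near -1.17 with 2 peaks, at Rnf32 and before the Lmbr1 promoter, and the grey profile lies near 0 with the same peaks.

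Pairs more than 20 kb apart with high signal were few. Of 973 short-range pairs more than 20 kb apart, 5 exceeded 1 read per 1000 in some replicate, a limit chosen after the values were seen. The centres of 4 of them fell between the Rnf32 window and that of the Lmbr1 promoter, where 147 of the 973 were centred. Together the 5 pairs held 0.0438% and 0.787% of short-range signal in the ESC replicates, 10.8% and 9.94% in NPC, 0.342% in tSBE6-Vp64, 6.12% in tSBE2-Vp64, and 1.97% and 0.852% in tSBE(6+2-Vp64), where replicate 1 had 1.98% without the library that stood apart. Since the 5 pairs were chosen for high values in any replicate, these shares and the placing of the pairs are a description. Whether the pairs cluster was not tested.

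The highest was Shh_379 with Shh_403 (chr5:29514013-29518402 and chr5:29560852-29561928), near Rnf32. It had 0.0716 and 3.04 in ESC, 22.0 and 24.2 in NPC, 1.40 in tSBE6-Vp64, 15.3 in tSBE2-Vp64, and 4.89 and 2.67 in tSBE(6+2-Vp64). Replicate 1 of tSBE(6+2-Vp64) had 7.24 without the library that stood apart. Both NPC replicates and tSBE2-Vp64 were above all the rest, and the ESC replicates were far from each other. In NPC it was 303.5 times the mean of 13 nearby pairs, and in ESC 35.9 times. Nearby pairs, not matched for distance, were those within 3 fragments at both ends, without any of the 5 high pairs. That left out Shh_382 with Shh_402, which had 0.790 and 0.748 in NPC. In the limma fit of single pairs, the NPC difference of Shh_379 with Shh_403 did not pass (log2 5.63, adjusted p = 0.579).

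Shh_388 with Shh_407 (38.6 kb) and Shh_382 with Shh_402 (40.4 kb) span much of the same stretch. The first had 0.0463 and 0.395 in ESC, 1.46 and 0.841 in NPC and 3.96 in tSBE2-Vp64. The second had 0.0187 and 0.305 in ESC, 0.790 and 0.748 in NPC and 1.26 in tSBE2-Vp64. In both, tSBE2-Vp64 was the highest and ESC replicate 1 the lowest. The pair at the Lmbr1 promoter, Shh_453 with Shh_461, had 0.0681 and 0.566 in ESC, 1.75 and 3.51 in NPC and 0.505 in tSBE2-Vp64. Its NPC replicate 1 is the mean of 0.597, in its technical replicate 1, and 2.89, so that 1 of the 3 NPC libraries was level with ESC replicate 2. Shh_472 with Shh_482 (24.1 kb), near Nom1, had 0.0702 and 0.365 in ESC, 1.80 and 1.48 in NPC and 1.35 in tSBE2-Vp64.

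The limit was exceeded by 4 and 3 of the 5 pairs in the NPC replicates, by 4 in tSBE2-Vp64 and by at most 1 in any other replicate, so the high values in these groups follow from the choice. The mean of the nearby pairs, which left out all 5, varied less across the groups. Around Shh_379 with Shh_403 it was 0.0433 in ESC, 0.0761 in NPC and 0.0868 in tSBE2-Vp64. Shh_382 with Shh_402, high in NPC and tSBE2-Vp64, would otherwise be among these pairs, so the smaller spread follows in part from the choice. Around Shh_453 with Shh_461 the mean of the nearby pairs was 0.271 in ESC and 0.197 in NPC, so they did not share the high NPC value. These nearby pairs were not matched for distance. The median of short-range pairs within 5 kb of its distance was 0.0473 in ESC and 0.0255 in NPC.

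**Figure D5:**
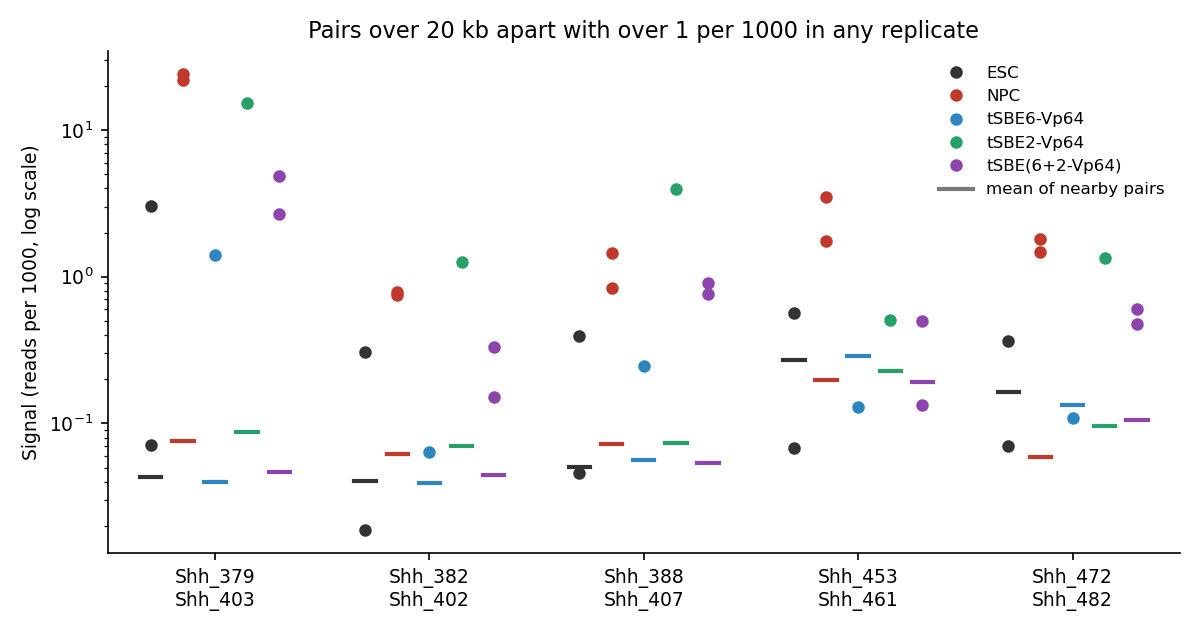
Signal (reads per 1000, log scale) of the 5 short-range pairs over 20 kb apart that exceeded 1 per 1000 in any replicate. Pairs are ordered by position and dots are biological replicates. Short lines are the group mean of the pairs within 3 fragments at both ends, without any of the 5. For Shh_379 with Shh_403 the NPC dots lie at 22.0 and 24.2 and the line of nearby pairs at 0.0761.

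No short-range pair passed on its own. Of 28769 pairs tested together by limma, 1767 were short-range, and none passed in any of the 4 comparisons; over all distances, 0.00348% passed in NPC and 0 in the other groups. At an unadjusted p under 0.05 there were 284 short-range pairs in NPC (16.1%, against 4.22% of all pairs) and 103 in tSBE2-Vp64 (5.83% against 2.25%). There were 4 in tSBE6-Vp64 (0.226% against 1.01%) and 51 in tSBE(6+2-Vp64) (2.89% against 2.43%). The 3 smallest p in NPC belonged to neighbouring pairs that were lower there. Shh_198 with Shh_199, past SBE6, had 5.54 and 5.48 in ESC and 1.39 and 1.35 in NPC (log2 -2.01, adjusted p = 0.108). Shh_300 with Shh_301, past SBE2, had 5.39 and 4.28 in ESC and 1.42 and 1.18 in NPC. Shh_247 with Shh_248, before SBE4, had 3.47 and 2.99 in ESC and 0.635 and 0.713 in NPC.

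After Shh_379 with Shh_403, the highest pairs over the 5 groups were all within 6 kb. They were Shh_549 with Shh_550, Shh_505 with Shh_506, Shh_198 with Shh_199 and Shh_461 with Shh_463. The first of these had 1.45 and 3.63 in ESC, 4.19 and 3.48 in NPC and 8.61 in tSBE2-Vp64, and was not lower in NPC. Shh_505 with Shh_506 (chr5:29845799-29846398 and chr5:29846399-29848887) had 5.59 and 6.17 in ESC and 2.17 and 2.08 in NPC. Shh_461 with Shh_463 shares fragment Shh_461 with the high distant pair at the Lmbr1 promoter. Its values were 5.69 and 4.24 in ESC and 2.48 and 2.99 in NPC.

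In the tSBE6-Vp64 library, windows lay on both sides of ESC. Its log2 differences were above 0 in 45 windows and below 0 in 40, with a median of 0.01 and a range from -0.57 to 0.74. By limma none passed (0 of 431 cells at any distance, 0%), and no short-range window had an unadjusted p under 0.05. With 1 replicate, 22 windows (25.9%) lay below both ESC replicates, against 11.8% of all cells, and 24 (28.2%) above, against 52% of all cells. The 3 smallest p were at chr5:29660001-29680000 past ZRS, with 0.0757 against 0.0572 and 0.0322 in ESC (log2 0.74 ± 0.66), at chr5:29460001-29480000 (0.134 against 0.0927 and 0.0680) and at the Insig1 window (0.348 against 0.256 and 0.197). The 95% interval of the first difference ran from -0.56 to 2.04, and that of the SBE6 window from -1.38 to 0.72.

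The pairs with the smallest p in tSBE6-Vp64 did not share a place. Shh_242 with Shh_243, between SBE6 and SBE4, had 2.30 against 4.19 and 4.83 in ESC. Shh_215 with Shh_220 had 0.301 against 0.0634 and 0.0245. Shh_285 with Shh_299, which spans the SBE2 window, had 0.149 against 0.00938 and 0 in ESC, 0.0124 and 0.0615 in NPC, and 0.0419 in tSBE2-Vp64. The values lay outside the ESC replicates in all 3, and each had an adjusted p of 1.00.

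The tSBE2-Vp64 library lay below ESC over most of the locus. The difference was below 0 in 79 of 85 windows (median log2 -0.75), and 74 windows lay below both ESC replicates, against 44.3% of all cells. Only the window at the right end passed by limma (0.625 against 2.20 and 1.45 in ESC, log2 -1.50 ± 0.43, adjusted p = 0.0294), with 13 windows (15.3%) at an unadjusted p under 0.05, against 7.19% of all cells. The window at the right end is the single pair Shh_554 with Shh_555, which did not pass in the fit of single pairs (log2 -1.51). Over all cells, 0.232% fell and 1.62% rose. The call was lost without ESC replicate 1, NPC replicate 1, NPC replicate 2 or the library that stood apart.

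On the scale of the short-range total, 4 windows of tSBE2-Vp64 passed, 3 higher and 1 lower (2.78% and 0.232% of all cells). The lower one was again the right end, at -0.77 ± 0.17. The higher ones were the Rnf32 window (1.70 ± 0.27, adjusted p = 3.00e-08), the window before the Lmbr1 promoter (1.54 ± 0.46, adjusted p = 0.0248) and chr5:29980001-30000000 (0.84 ± 0.21, adjusted p = 0.00395). The first and second are also the 2 that rose in NPC, a comparison made with the same ESC libraries. In the second, the highest pair, Shh_453 with Shh_461, had 0.505 in tSBE2-Vp64 on the whole-library scale. That lay between the ESC replicates, which were far apart at 0.0681 and 0.566. In the third, Shh_549 with Shh_550 held 61.4% of the tSBE2-Vp64 signal, and without the highest pair the whole-library difference was -0.91. Leaving out ESC replicate 1 gave 2 such windows, and there was 1 without either tSBE(6+2-Vp64) replicate or the library that stood apart.

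Single pairs with the smallest p in tSBE2-Vp64 were Shh_399 with Shh_425, Shh_151 with Shh_152 at Shh, and Shh_388 with Shh_407 near Rnf32. The first was listed at 0 in tSBE2-Vp64 and had 0.0548 and 0.0555 in ESC. Shh_151 with Shh_152 had 1.53 against 5.03 and 4.10 in ESC, with 1.45 and 1.76 in NPC.

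In tSBE(6+2-Vp64) the difference from ESC was below 0 in 76 of 85 windows (median log2 -0.38), and 31 windows (36.5%) lay below both ESC replicates in both replicates, against 8.35% of all cells. Without the library that stood apart there were 22 such windows (25.9%), near the 25.8% of all cells. By limma none of the 85 passed, and 3 (3.53%) had an unadjusted p under 0.05, against 5.10% of all cells. Over all cells 1.62% rose and 0 fell. Without the library that stood apart the median was -0.20 and again none passed. The 3 smallest p were at chr5:28860001-28880000 before SBE6 (0.607 and 0.758 against 1.41 and 1.02 in ESC, log2 -0.82 ± 0.37), at the Shh window (log2 -0.96 ± 0.49) and at the right end (1.08 and 1.12 against 2.20 and 1.45). Both replicates were below both ESC replicates in each, but in only 1 of the 3 without the library that stood apart. Replicate 1 then had 0.249 at Shh, still below ESC, 1.12 before SBE6, between the ESC replicates, and 2.09 at the right end, above ESC replicate 2.

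On the scale of the short-range total 1 window rose in tSBE(6+2-Vp64), chr5:28420001-28440000 beside Insig1 (0.62 ± 0.17, adjusted p = 0.0260, with 1.62% of all cells higher). Its replicates disagreed on that scale, with 1.38 and 2.77 against 1.38 and 1.16 in ESC. The rise was lost without tSBE(6+2-Vp64) replicate 1, NPC replicate 2 or the library that stood apart. Of the single pairs with the smallest p, Shh_151 with Shh_152 at Shh had 1.74 and 2.22 against 5.03 and 4.10 in ESC. Shh_171 with Shh_173, before SBE6, had 1.81 and 1.79 against 3.71 and 3.04, and Shh_300 with Shh_301 had 2.48 and 2.87 against 5.39 and 4.28. These replicate values are means of libraries that differed widely, and no adjusted p was under 1.00. Without the library that stood apart, replicate 1 had 3.36 in Shh_151 with Shh_152, still below ESC. It had 3.46 in Shh_171 with Shh_173 and 4.81 in Shh_300 with Shh_301, both between the ESC replicates. The libraries of replicate 2 were also apart, with 0.705 and 5.03 in the last pair.

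Members of the set shared few other properties. Across the 1772 pairs, which are not independent, mean signal followed distance (Spearman's rho -0.67) and hardly the length of the shorter fragment (rho 0.09, or 0.24 among the pairs over 20 kb apart). Of the 1772, 1431 (80.8%) were above 0 in all 8 biological replicates and 1196 (67.5%) in all 11 libraries. Their log2 signal correlated between libraries of different groups with a median r of 0.695, against 0.292 for pairs over 50 kb apart. Libraries of different replicates of 1 group correlated no more closely, with a median r of 0.688 over 7 comparisons. Those with the library that stood apart had 0.486 and 0.447, and the others ran from 0.673 to 0.725. At the limit itself, the 32 pairs in the last 1 kb inside had a median of 0.0274 in ESC and 0.0133 in NPC, and the 40 pairs in the first 1 kb outside had 0.0248 and 0.0178.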

How the data were processed

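Signal values were deposited by the authors as symmetric matrices of HindIII fragment pairs; scaling to reads per 1000 is read from the values, and the build is mm9 per the labels and fragment names. Aligner and read filters: not given in the sources used here. Libraries were rescaled to 1000 over 341 shared fragments and technical replicates averaged. Pairs were put by centre into 20-kb windows and by distance into classes, and all 431 cells with signal in at least 2 replicates were fitted together as log2(mean signal + 0.00552) with limma 3.58.1 in R 4.3.3 (lmFit, eBayes with trend, two-sided, all 5 groups, Benjamini-Hochberg at 0.05). Single pairs were fitted likewise with a pseudocount of 4.52e-05. Differences are on this scale, which understates changes of low values. The fit left 3 residual degrees of freedom and took the window spread wholly from the fitted trend; a lone replicate is taken to vary as replicated groups do. Nothing in the labels says that replicates came from separate cultures, so p-values measure at most the spread between these samples. Window p-values rest on a spread pooled over 431 cells that share libraries and fragments, not on the replicates of each window alone. The window fit thus had a median of 1293 degrees of freedom, against 8.65 for single pairs, and its smallest p-values overstate what these replicates can show. Reads carry no molecular identifiers.

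Element positions are approximate and come from knowledge of the locus. Exons and introns were left unassigned and no sequence is printed, as no mm9 reference was used here. Named windows and pairs follow a fixed rule: 6 elements, the 5 highest and 5 lowest windows, the 5 highest pairs, and per comparison up to 5 passing each way or else the 3 smallest p. Members, elements and lists were chosen with earlier results of these data known. The script was tested on simulated data. Tables were handled in pandas 2.3.3 and numpy 2.4.6 (Python 3.11.15).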

Additional observations from a re-analysis of the deposited data

Results flagged for a closer look

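In the 4 tSBE(6+2-Vp64) libraries, 23 measures (9 of the short-range signal and the mean of 14 element windows) were searched for a library whose gap to the nearest other exceeded Dixon's 95% critical share of the range; chance gives such a value in about 1 of 20 groups. There were 4 such values. The library of replicate 1, technical replicate 1 had 18.2% of its short-range signal in neighbouring fragments, against 64.3% to 70.0% in the other 3, and a distance slope of -0.24, against -1.27 to -1.45. The library of replicate 2, technical replicate 2 had mean signals of 0.435 in the Insig1 window and 0.196 in the Rbm33 window, above the other 3 in both. What set these libraries apart was not tested.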

How the results depend on the processing

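The sign of the NPC difference in share (below 0) and in slope (above 0) held in each setting run (14 and 12). In NPC, the windows called went from 30 to 4 with the short-range total, without the 21 high long-range pairs or without neighbours, 1 with the median over pairs or with technical replicates as columns, 17 without each window's highest pair, 3 over expectation, 59 and 46 with the duplicated library in both replicates or in replicate 2, and 61 without tSBE(6+2-Vp64) replicate 1, technical replicate 1. Leaving out 1 replicate gave 2 to 57, and 3 to 9 on the short-range total. For tSBE2-Vp64 the 1 call became 4 with the short-range total and 0 in 10 settings: without high long-range pairs, 10-kb windows, median over pairs, without highest pairs, over expectation, limits of 30 and 100 kb, without neighbours, technical replicates as columns, without trend, and also without that library. Leave-one-out gave 0 to 1, and 1 to 6 on the short-range total (1 without that library). tSBE(6+2-Vp64) had 1 with the short-range total, then 0 without that library and 0 to 5 leaving out 1 replicate; tSBE6-Vp64 had 0 to 1 there. Pairs called went from 0 to 1 in NPC with technical replicates as columns (leave-one-out 0 to 1) and 0 to 2 in tSBE(6+2-Vp64).

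The share difference from ESC was -15.9 points in NPC and -12.5 in tSBE2-Vp64 without high long-range pairs, and -18.4, -14.2 and, for tSBE6-Vp64, 1.43 without neighbours. The slope difference was 0.34 (NPC) and 0.18 (tSBE2-Vp64) with a limit of 30 kb, 0.21 and 0.17 without the highest pair, and for tSBE(6+2-Vp64) -0.026 without that library and -0.092 to 0.39 leaving out 1 replicate.

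Element windows changed sign as follows. Over expectation, NPC had 0.74 at Shh, 0.27 at ZRS and 0.17 at the Lmbr1 promoter; tSBE2-Vp64 0.18 at Shh and 0.18 at ZRS; tSBE(6+2-Vp64) 0.032 at Shh, 0.029 at ZRS and 0.16 at the Lmbr1 promoter; tSBE6-Vp64 0.11 at SBE4, 0.13 at SBE2 and 0.0084 at ZRS. With the median, tSBE6-Vp64 had 0.71 at Shh, 0.37 at SBE6, 0.29 at SBE4, 0.53 at SBE2 and 0.083 at the Lmbr1 promoter; tSBE2-Vp64 0.28 at Shh and 0.0098 at ZRS; tSBE(6+2-Vp64) 0.52 at Shh. Without neighbours, tSBE6-Vp64 had 0.32 at SBE6, 0.37 at SBE2 and 0.42 at ZRS, and tSBE2-Vp64 0.0075 at ZRS. With the short-range total NPC had 0.14 at ZRS and 0.23 at the Lmbr1 promoter. At SBE4 tSBE6-Vp64 had 0.15 in 10-kb windows, 0.18 without the highest pair and -0.30 to 0.083 leaving out 1 replicate; at SBE2 0.0013 with the replicate block; at ZRS -0.39 to 0.050. The cause of these changes was not tested.

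With the replicate number as a block, NPC had 43 windows called, tSBE2-Vp64 1 and the others 0; same-numbered deviations correlated at 0.169, 0.424 and 0.021 across windows, so the numbers were not taken as pairs. A count test on recovered reads was not run, since higher values are rounded. The settings without that library or without the highest short-range pair, and leaving out replicates on the short-range total, were chosen after seeing the data.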
